A study of Mus musculus with 18 samples.

Results

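The cytoplasmic ribosomal protein genes encode the proteins of the small (40S, Rps) and large (60S, Rpl) subunits of the ribosome that translates nuclear mRNAs. Members were taken by symbol, as Rpl or Rps followed by a number, with Rplp0, Rplp1, Rplp2 and Rpsa added and annotated pseudogenes left out. This gave 84 genes, 52 of the large and 32 of the small subunit, among the 55401 lines of the endothelial table and again among the 22612 lines of the EO771 table. Another 6 endothelial lines fitted the symbol rule but were annotated as pseudogenes and were left out (Rps3a2, Rps3a3, Rps4l, Rps12l1, Rpl6l and Rpl32l).

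The series measured RNA in 18 libraries of 6 groups with 3 libraries each. Endothelial cells came from female wild-type C57BL/6 mice and were sorted as CD45-, CD31 high cells, with PNAd (the sulphated sugar epitope of high endothelium) separating high endothelial cells (HECs, PNAd+) from other blood endothelial cells (BECs, PNAd-). BEC normal cells were from mammary fat pads without tumours, BEC tumour cells from EO771 tumours, and HEC normal cells from inguinal nodes of animals free of tumour. HEC tumour cells were from inguinal nodes of mice inoculated with EO771 cells. The paper calls these nodes tumour-bearing, and the labels do not say whether they held metastases. Since every BEC library came from fat pad or tumour and every HEC library from lymph node, cell type and tissue cannot be told apart. EO771, a mouse breast cancer cell line, was treated in culture with vehicle (DMSO in saline) or with 12-HETE, a lipid made from arachidonic acid by the lipoxygenase ALOX12. The study describes independent experiments, while the labels do not tie replicate numbers to animals or cultures, so that p-values measure the spread between these libraries.

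Each ribosome holds a single copy of nearly every ribosomal protein, with the acidic stalk proteins as an exception, and cells therefore make these proteins in near-equal amounts. Their mRNAs are among the most abundant of any cell, and most begin with a 5' terminal oligopyrimidine (TOP) tract, a C followed by further C and T bases, through which mTORC1 and LARP1 control their translation. Changes in translation are not seen in mRNA counts, which give only how much of each mRNA was there.

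The tract was looked for because it is the sequence feature that sets these mRNAs apart. RefSeq promoter sequences (GRCm38.p6, from 250 bases before to 50 after the annotated start) matched 64 of the 84 members. A run of at least 8 bases that were all C or T, beginning with C, lay on the sense strand between 20 bases before and 50 after the annotated start in 49 of the 64 (76.6%), against 6135 of 27025 genes with a promoter (22.7%). A TATA box with the letters TATAAA, on either strand in the 50 bases before the start, was found in 1 of the 64 members (1.56%) and in 4.17% of all genes. The runs of members whose mRNA levels are described next are shown here, 30 bases each, with the run in capitals:
Rps21 (chr2:180257399-180257428, + strand): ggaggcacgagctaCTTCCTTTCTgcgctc
Rplp2 (chr7:141447642-141447671, + strand): agcgtCTTCCTTTCgccgccggacgccgcc
Rps2 (chr17:24720083-24720112, + strand): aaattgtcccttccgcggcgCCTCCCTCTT
Rpl22l1 (chr3:28805506-28805535, + strand): ccgttCTCTTCCCacggctgcagctcaaca
Rpl31 (chr1:39367831-39367860, + strand): caCCTCTTCCTCCTCgcctccccgtgaccc
Rps23 (chr13:90923142-90923171, + strand): tgggtccttcctgcaCCTCCTCTCTCTTTC
Rpl37a (chr1:72711279-72711308, + strand): tgcgtCCCTTCCTCTTCggacttgggcttg
Members with and without such a run were compared by their median fold change. In HEC normal against BEC normal cells the median log2 fold change was 0.46 in the 48 tested members with a run and 0.38 in the 13 without (Rpl39l left out), and in HEC tumour against HEC normal cells it was -0.36 and -0.33. In BEC tumour against BEC normal cells it was -0.17 with and 0.02 without a run, in HEC tumour against BEC tumour cells 0.22 and 0.30, in the interaction -0.15 and -0.26, and in EO771 cells -0.06 and -0.02. These medians are descriptions, without a test.

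In the genome annotation (GENCODE, GRCm38) the members lay on 19 chromosomes, with 14 of them on chromosome 7. Of the 84, 30 (35.7%) hosted at least 1 small nucleolar RNA gene, 58 such genes in all, compared with 1.27% of 22028 protein-coding genes. Exons of 39 members overlapped those of another annotated gene. Their mRNAs were short, with a median exonic length of 705 bases compared with 2267 bases for protein-coding genes, and their median GC content was 51.8%. Processed pseudogenes of ribosomal protein genes are common in the mouse genome, and reads shared with such copies could be assigned differently in each table, so differences in level between genes or between tables are uncertain to that extent.

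The libraries held totals of 56410964 to 79357993 deposited counts in the endothelial table and 17294591 to 18624179 in the EO771 table. The low endothelial values lay in steps of 3.68 to 3.77, so that the depth in fragments may be lower than these totals by that factor. The 7 endothelial markers summed to 2204 to 2960 CPM (counts scaled to a common library size) in all endothelial libraries, and Glycam1 and Chst4, which mark high endothelium, were at 0 in every BEC library. HEC libraries summed to 970 to 3049 CPM over the 5 high endothelial markers, although Ccl21a was at 0 in all 6 and Madcam1 was also at 0 in the HEC normal libraries. Leukocyte markers summed to 604 to 993 CPM in the BEC tumour libraries, compared with 3.97 to 11.4 CPM in the other endothelial libraries, and fibroblast and pericyte markers to 804 to 812 CPM in the BEC normal libraries, compared with 10.4 to 97.4 CPM in the others. Most of the leukocyte sum was Lyz2 (mean 774 CPM), with Csf1r at 46.1, Ptprc at 9.85 and the lymphocyte markers at 0.0647 to 1.00 CPM. Most of the fibroblast and pericyte sum was Acta2 (622 CPM) and Col1a1 (122 CPM). Pdgfra was alike in BEC normal (16.2 CPM) and HEC normal libraries (15.9 CPM). Epithelial and tumour markers summed to 7.915 to 71.55 CPM in the BEC tumour libraries and to 0.792 to 3.1 CPM in the other endothelial libraries. EO771 libraries summed to 1929 to 3781 CPM over these epithelial markers.

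The members together took up more of the HEC libraries than of the BEC libraries. Their share of all counts was 5.79%, 6.72% and 6.33% for BEC normal cells and 5.78%, 5.88% and 6.63% for BEC tumour cells. It was 8.66%, 9.05% and 8.91% for HEC normal cells and 7.2%, 7.34% and 7.16% for HEC tumour cells. The HEC normal libraries lay above all others, the HEC tumour libraries came next, and the BEC groups overlapped. In EO771 cells the share was 6.6%, 7.03% and 6.0% with vehicle and 6.11%, 6.40% and 6.18% with 12-HETE, and the treated libraries lay within the range of the controls. In bulk samples such as these, fewer cells of a type and less RNA per cell cannot be told apart.

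The ratio of the subunits was not the same in each group. The summed counts of large subunit genes were 1.45 to 1.47 times those of small subunit genes in BEC normal cells, 1.30 to 1.33 times in BEC tumour cells, 1.24 to 1.25 times for HEC normal and 1.26 to 1.27 times in HEC tumour cells. The ranges of these 4 groups did not overlap. In EO771 cells the ratio was 1.28 to 1.35 with vehicle and 1.32 to 1.33 with 12-HETE.

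**Figure D1:**
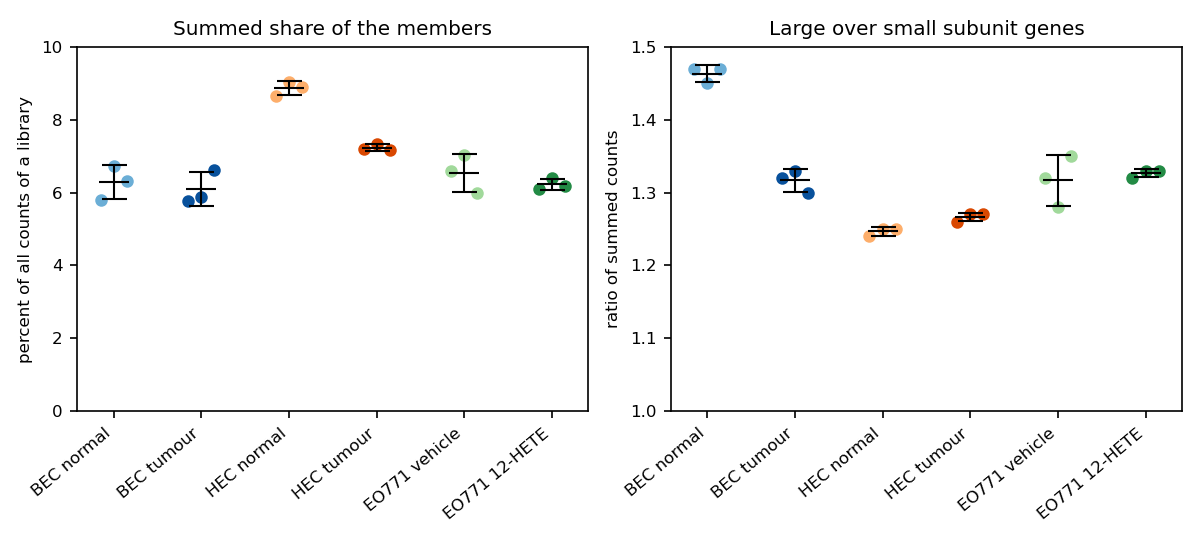
Summed share of the members in percent of all counts (left) and ratio of summed large to small subunit counts (right, axis from 1) in the 18 libraries. Points are libraries and bars are the group mean and SD (n = 3). The HEC normal libraries hold 8.66% to 9.05%, above every other library, and the BEC normal libraries have the highest ratio, 1.45 to 1.47.

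Levels were compared between members per exonic length, taken from the shortest principal transcript. Over the endothelial libraries the median member was at 1733 TPM (counts scaled by exonic length and library size), and 65 of 84 members lay within 2-fold of it. With the length of all annotated exons of a gene the median was 1015 TPM and 51 lay within 2-fold. By the shortest principal transcript, the 3 highest in mean were Rplp1 at 5433 TPM, Rpl32 at 4894 TPM and Rps2 at 4650 TPM. Rplp1 encodes an acidic protein of the stalk, of which a ribosome holds more than 1 copy, and Rps2 a protein at the mRNA entry channel. The 3 lowest were Rpl10l at 0, Rpl3l at 0.0527 TPM and Rpl39l at 5.39 TPM, all of them paralogues known from muscle or testis. In EO771 cells the highest were Rpl41, which encodes a very short protein, at 12294 TPM, Rplp0 at 6119 TPM and Rps26 at 5689 TPM, and the lowest again Rpl10l, Rpl39l and Rpl3l, each under 1 TPM. The order of the highest depends on the length used. With all annotated exons they were Rplp1, Rps15 and Rplp0 in the endothelial table and Rplp0, Rplp1 and Rpl41 in EO771.

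The tables disagreed on some members, core ones and the paralogue Rpl36al among them. Rpl24, a 60S protein at the subunit interface, had group means of 471 to 1063 normalised CPM in endothelial cells but 0.981 ± 0.426 (SD, n = 3) in EO771 vehicle cells, and Rpl36al at 215 ± 8.32 in BEC normal but 1.68 ± 0.523 in EO771 vehicle cells. Rpl26 had 1054 ± 66.3 in BEC normal but 64.3 ± 11.3 in EO771 vehicle cells, and Rpl13a 825 ± 198 but 94.3 ± 17.6. Exons of Rpl24, Rpl36al and Rpl13a overlap those of other annotated genes, as do those of 39 of the 84 members, while exons of Rpl26 do not. Levels here, called normalised CPM, are counts divided by DESeq2's size factors and then by the mean library total of the table. The tables were counted and normalised separately. The study's methods also give another library kit, a directional one, and another sequencer for the EO771 cells than in their general RNA-seq section. The part of the counting method or of these differences in the gaps was not tested.

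Tests within each table compared 82 members in the endothelial libraries, where Rpl3l and Rpl10l had mean counts under 10, and 81 in EO771, where Rpl39l was too low as well. The main rule was that of the study (adjusted p under 0.05 and fold over 2, DESeq2 with Benjamini-Hochberg adjustment over all genes tested). Since these genes can move together by less than 2-fold, calls by the adjusted p alone were counted too. The median coefficient of variation over the tested members was 9.3% for BEC normal, 8.85% for BEC tumour, 3.1% for HEC normal, 2.1% for HEC tumour, 9.2% for EO771 vehicle and 3.9% for EO771 12-HETE cells. Over all genes the EO771 groups were unequal too. Chi-square per gene, which sets differences between 2 libraries against counting error, was 16.47 to 46.25 for vehicle and 2.39 to 2.72 for 12-HETE pairs. The tests used a shared estimate of spread for both groups, which limits their p-values.

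High endothelial cells of normal lymph nodes were compared with BECs of normal fat pad to see how the cell types differ at rest. Most members were higher in HECs. By the adjusted p alone 62 of 82 were higher and 7 lower, compared with 31.4% higher and 31.9% lower of the 18511 genes tested. Past 2-fold, 14 were higher and 2 lower, against 17.1% and 15.1% of all genes. The median log2 fold change of the members was 0.46, compared with 0.00 for all genes. It was 0.54 for the small and 0.40 for the large subunit genes, and 10 of the 14 called members belonged to the small subunit.

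Rps21, a small protein of the 40S subunit (chr2:180257377-180258445), had 200, 240 and 217 normalised CPM in BEC normal and 615, 643 and 646 in HEC normal cells. Every HEC library lay above every BEC library, and the log2 fold change was 1.54 ± 0.09 (SE, adjusted p = 1.84e-67, DESeq2). Rps28, another small 40S protein that lies near the mRNA exit, had 185, 192 and 179 in BEC normal and 515, 534 and 542 in HEC normal cells, without overlap (log2 fold change 1.52 ± 0.09, adjusted p = 1.89e-64, DESeq2). Its gene overlaps an exon of Kank3, so reads of both could be confused where strand was not used. Rpl39, which lines the peptide exit tunnel of the 60S subunit, had 218, 263 and 229 against 635, 672 and 649 (log2 fold change 1.46 ± 0.09). Rplp2, a stalk protein, had 441, 434 and 422 against 937, 993 and 962 (1.16 ± 0.07). Rps2 had 1442, 1732 and 1642 against 3906, 4011 and 3839 (1.29 ± 0.08). None of these groups overlapped.

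Among the other called members were Rpl22l1, Rpl27a, Rps3, Rps10, Rps13, Rps20, Rps27 and Rps27a, with log2 fold changes between 1.00 and 1.59. Rps27a encodes ubiquitin fused to a 40S protein, and Rps3 lines the mRNA entry channel and also takes part in DNA repair. For Rps27, a zinc finger protein of the 40S subunit, the BEC normal libraries were far apart at 143, 371 and 232, although all lay below the HEC normal libraries at 603, 605 and 589.

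Fewer members were lower in HEC normal cells. Rpl39l, the paralogue of Rpl39, had 6.24, 8.18 and 6.14 normalised CPM in BEC normal cells and was listed at 0 in all 6 HEC libraries. Set against a floor of 3 of the smallest steps per library, it was at least 41.9-fold lower in HEC normal cells. Rpl17, which lies at the exit of the peptide tunnel, had 375, 404 and 361 in BEC normal and 166, 224 and 160 in HEC normal cells, again without overlap (log2 fold change -1.05 ± 0.21, adjusted p = 1.93e-06, DESeq2). Rpl31, its neighbour at the tunnel exit, fell by less, from 837, 981 and 948 to 648, 696 and 690 (-0.44 ± 0.08, adjusted p = 2.23e-07, DESeq2). Rps6, Rps12, Rps23 and Rpl37a were the other 4 that were lower. Without HEC normal replicate 1 or 3, the count lower past 2-fold was 1.

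After removal of the trend with exonic length and GC content seen in other genes, the median of the members was 0.27 in place of 0.46. The summed fibroblast and pericyte markers differed between these groups, with Pdgfra alike, as given above. The part of these markers in the result was not tested.

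**Figure D2:**
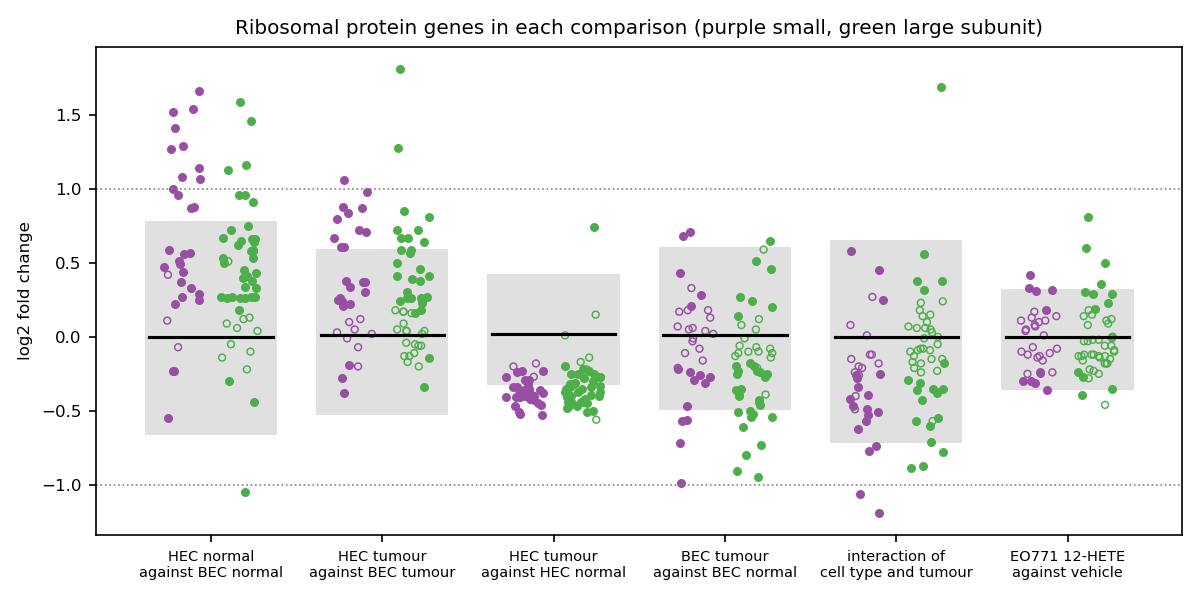
Log2 fold change of each tested member in the 6 comparisons (Rpl39l left out), with small subunit genes in purple and large subunit genes in green. Filled points have an adjusted p under 0.05, black lines and grey boxes are the median and quartiles of all genes tested, and dotted lines mark 2-fold. In HEC tumour against HEC normal cells the members sit in a tight band around -0.36.

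Within the tumour-bearing mice the members were again mostly higher in HECs, by less. With the adjusted p alone, 49 were higher in HEC tumour cells and 6 in BEC tumour cells, against 25.9% and 28.4% of all genes. Past 2-fold, 3 were higher and 1 lower, against 11.2% and 10.7%. The median log2 fold change was 0.24, compared with 0.01 for all genes. The 3 higher ones were Rpl22l1, Rpl39 and Rps21.

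Rpl22l1, a paralogue of the 60S protein Rpl22 that also binds RNA outside the ribosome, had 35.8, 33.9 and 38.1 normalised CPM in BEC tumour and 128, 122 and 129 in HEC tumour cells. The groups lay far apart, with a log2 fold change of 1.81 ± 0.11 (SE, adjusted p = 4.82e-64, DESeq2). Its partner Rpl22 had means of 135 ± 12.2 and 180 ± 4.88 (SD, n = 3). Rpl39 had 216, 211 and 251 against 539, 564 and 543 (log2 fold change 1.28 ± 0.09), and Rps21 had 221, 214 and 255 against 471, 504 and 467 (1.06 ± 0.09). Neither pair of groups overlapped.

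Abundant members went the other way. Rpsa, a 40S protein also known as the laminin receptor precursor, had 3254, 3386 and 3656 in BEC tumour and 2588, 2691 and 2625 in HEC tumour cells (log2 fold change -0.38 ± 0.07, adjusted p = 3.94e-07, DESeq2). Rplp0, which anchors the stalk, had 3244, 3442 and 3749 against 2788, 2781 and 2696 (-0.34 ± 0.07), and Rpl4, which reaches into the exit tunnel, had 2303, 2297 and 2459 against 2146, 2142 and 2115 (-0.14 ± 0.05, adjusted p = 0.0116, DESeq2). No library of these groups overlapped for the 3 genes. The call of Rpl4 was lost without BEC tumour replicate 3 (adjusted p = 0.0635, DESeq2), without HEC tumour replicate 3 (0.0574) and with total-count scaling (0.0752). Rpl39l was the member called lower past 2-fold, but in BEC tumour cells its mean of 0.112 was under the floor of 0.144, so no fold is given, and the call was lost without BEC tumour replicate 2 or 3 or HEC tumour replicate 2. The other 2 that were lower were Rps12 and Rps26. The count lower by the adjusted p alone was 2 without BEC tumour replicate 3 and 3 without HEC tumour replicate 2 or 3, and 5 were higher past 2-fold without BEC tumour replicate 3. Summed leukocyte markers and summed epithelial and tumour markers were higher in all 3 BEC tumour libraries than in the HEC tumour libraries. The part of these differences was not tested.

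The normal and tumour comparisons of HECs with BECs share no library. Of 82 members, 45 were higher in HECs in both and Rpl39l and Rps12 were lower in both. These were 54.9% and 2.44% of the members, compared with 14.9% and 16.8% of all genes tested. Rplp0 was higher in HEC normal and lower in HEC tumour cells (1.22% of the members, compared with 4.71% of all genes). Rpl17, Rpl37a and Rps23 showed the reverse (3.66%, compared with 3.97%). Neither share was above that of all genes. Across 81 members without Rpl39l the log2 fold changes of these comparisons had a Pearson correlation of 0.61 and a Spearman correlation of 0.61, a description across genes that are not independent replicates.

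HECs of lymph nodes from tumour-bearing mice were compared with those of normal nodes to follow the change with tumour. Nearly all members were lower, each by a small amount. Of 82 members, 70 fell by the adjusted p alone and 1 rose, compared with 18.5% lower and 16.9% higher of all genes. None passed 2-fold in either direction, against 3.21% lower and 4.58% higher of all genes. At an unadjusted p under 0.05 with a fold over 2 the DESeq2 count was also 0 in each direction, and edgeR likewise called 0. The median log2 fold change was -0.36, with quartiles of -0.43 and -0.27, compared with 0.02 for all genes. The small subunit genes had a median of -0.37 and the large subunit genes one of -0.35. The share of mitochondrially encoded genes was 2.23% to 2.44% in HEC normal and 2.85% to 3.09% in HEC tumour libraries. High endothelial markers summed to 970 to 1323 and 2215 to 3049 CPM, and fibroblast and pericyte markers to 24.9 to 26.0 and 10.4 to 11.7 CPM. Their part in the lower levels was not tested.

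Rps4x, an X-linked 40S protein, fell from 2123, 2131 and 2063 normalised CPM to 1509, 1529 and 1516 (log2 fold change -0.47 ± 0.07, adjusted p = 2.59e-11, DESeq2). The libraries of each group were within a few percent of each other and the groups lay far apart. Rplp2 fell from 937, 993 and 962 to 678, 725 and 676 (-0.48 ± 0.07), and Rps2 from 3906, 4011 and 3839 to 2726, 2802 and 2693 (-0.52 ± 0.08). The stalk genes moved together, with log2 fold changes of -0.44 ± 0.07 for Rplp0 and -0.47 ± 0.11 for Rplp1 beside that of Rplp2, and Rpsa fell by 0.43 on the log2 scale.

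Rpl17 was the member that rose. It had 166, 224 and 160 in HEC normal and 209, 356 and 355 in HEC tumour cells, so that HEC tumour replicate 1 lay within the range of the normal libraries (log2 fold change 0.74 ± 0.21, adjusted p = 0.00207, DESeq2). Rpl7l1, with means of 161 ± 6.06 and 178 ± 7.76 (SD, n = 3), did not pass (0.15 ± 0.07, adjusted p = 0.082, DESeq2) but did under other settings. These were total-count scaling (log2 fold change 0.22, adjusted p = 0.00222, DESeq2), values divided by the step (0.16, 0.0473) and a fit of only these groups (0.14, 0.00966). Single libraries set other members apart. Rpl29 had 474, 508 and 37.0 in HEC normal cells, with the third library far below the others, and its log2 fold change of 0.01 had an SE of 0.70. A coefficient of variation over 20% was found for 3 members in HEC normal cells, Rpl29 and Rps25 among them, and for 2 in HEC tumour cells, Rpl17 among them.

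**Figure D3:**
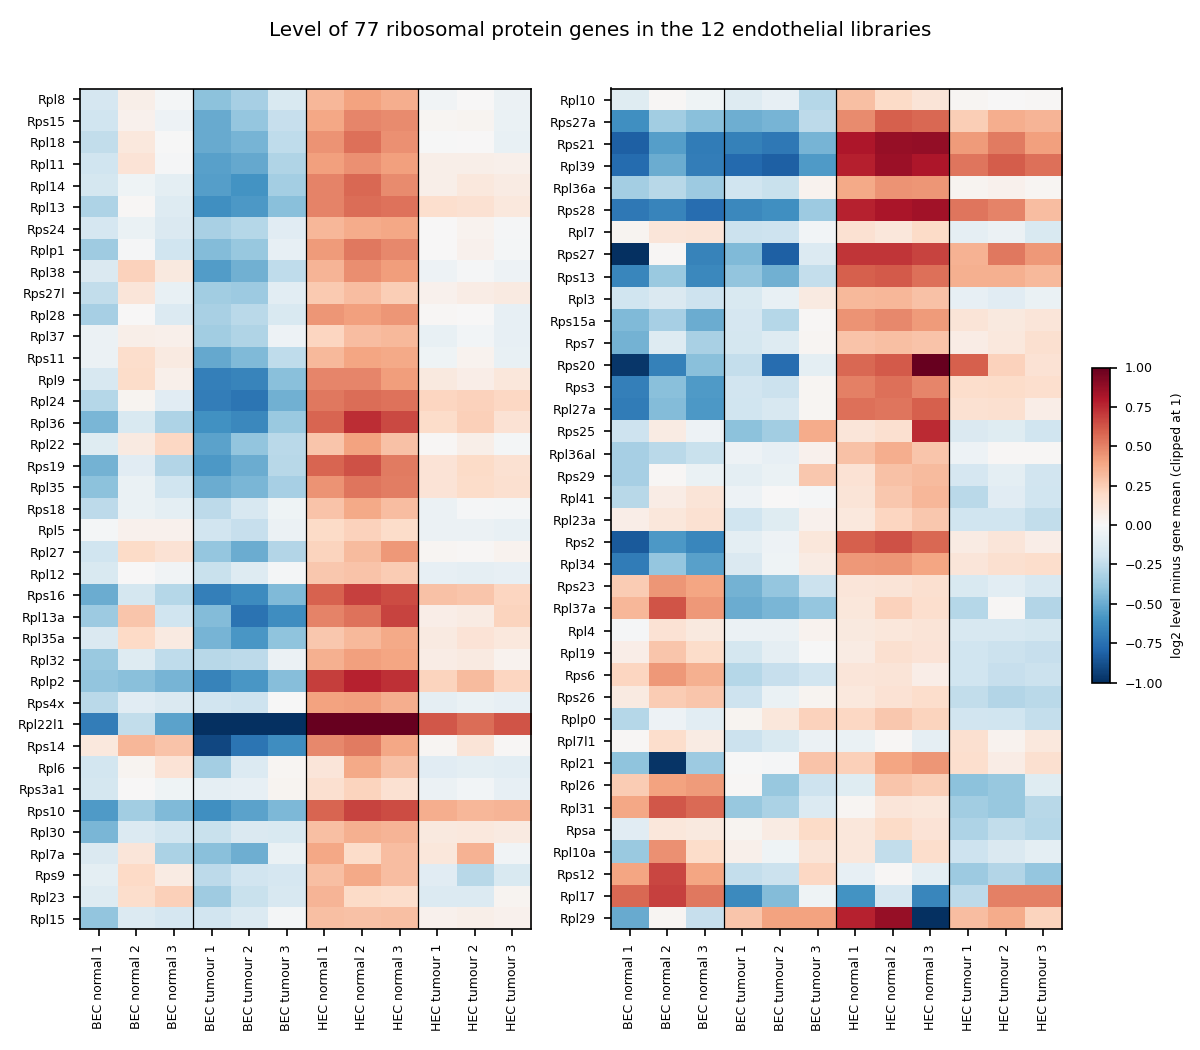
Level of 77 members (Rpl39l and 4 others left out) in the 12 endothelial libraries, as log2 level minus the mean of the gene, clipped at 1 in either direction. Genes run from the most like the mean of the others (top of the left panel) to the least (Rpl29, bottom of the right panel). HEC normal libraries are red for most genes, and Rpl29 is dark blue in HEC normal replicate 3.

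Over the 12 endothelial libraries the members followed each other closely. The Pearson correlation of each with the mean log2 level of the others had a median of 0.83, and 45 of 82 were over 0.8. Rpl8, Rps15 and Rpl18 were among the 5 highest, each at 0.99. The 5 lowest were Rpl10a at 0.10, Rps12 at 0.02, Rpl17 at -0.12, Rpl29 at -0.25 and Rpl39l at -0.48. The libraries share groups and depth, so these are descriptions.

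BECs of tumours were compared with those of normal fat pad. The members were split here. In all, 38 fell by the adjusted p alone and 12 rose, compared with 27.2% lower and 26.5% higher of all genes, and 32 did not pass. Past 2-fold, Rpl39l was lower, against 10.8% of all genes. No member was higher past 2-fold by DESeq2, nor at an unadjusted p under 0.05 or by edgeR (0 members each), against 12.4% of all genes. The median log2 fold change was -0.17, compared with 0.01 for all genes. Large subunit genes had a median of -0.22, with 27 of 50 lower and 7 higher, and small subunit genes one of -0.02, with 11 of 32 lower and 5 higher.

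Rps14, which forms part of the 40S platform and is known from the anaemia of 5q deletion, fell from 671, 787 and 760 normalised CPM in BEC normal to 333, 376 and 406 in BEC tumour cells. The groups did not overlap, and the log2 fold change was -0.99 ± 0.09 (SE, adjusted p = 1.51e-27, DESeq2). Rpl31 fell from 837, 981 and 948 to 492, 514 and 580 (-0.80 ± 0.08), and Rps23, a protein of the decoding centre, from 825, 937 and 909 to 498, 529 and 595 (-0.72 ± 0.07). Neither overlapped. Rpl39l fell from 6.24, 8.18 and 6.14 to 0, 0.235 and 0.102, at least 47.6-fold against the floor. Its adjusted p was between 0.0877 and 0.104 when any BEC normal library or BEC tumour replicate 3 was left out. Without BEC tumour replicate 3 there were 2 members lower past 2-fold, and without BEC normal replicate 2 or 3 there were 0.

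Of those that rose, Rps2 went from 1442, 1732 and 1642 to 2413, 2492 and 2791 (log2 fold change 0.68 ± 0.08, adjusted p = 9.93e-17, DESeq2). Rpl34 went from 165, 204 and 184 to 242, 260 and 283 (0.51 ± 0.09), and Rpl27a, a 60S protein, from 696, 837 and 759 to 983.5, 1010 and 1149 (0.46 ± 0.08). All BEC tumour libraries lay above all BEC normal libraries for these 3 genes. With the trend of length and GC content removed, the median of all members was -0.41 in place of -0.17. Leukocyte markers were at 604 to 993 CPM in BEC tumour and 5.90 to 11.4 CPM in BEC normal libraries, and fibroblast and pericyte markers at 68.5 to 97.4 and 804 to 812 CPM. Epithelial and tumour markers were at 7.915 to 71.55 CPM in BEC tumour and 1.32 to 2.86 CPM in BEC normal libraries. Their part in these changes was not tested.

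Of the pseudogene lines left out by the rule, Rps3a2, Rps3a3 and Rps4l were highest in BEC normal cells. Rps3a2 had means of 170 ± 30.6 for BEC normal, 13.8 ± 2.77 for BEC tumour, 26.2 ± 2.09 for HEC normal and 22.4 ± 2.03 for HEC tumour cells (SD, n = 3, normalised CPM). Rps3a3 had 101 ± 9.59, 6.88 ± 2.03, 11.9 ± 1.26 and 10.8 ± 0.468 in the same order. Rps4l had 20.7 ± 1.54, 8.54 ± 1.599, 0.0793 ± 0.0687 and 0.0337 ± 0.0583. Rps3a1, the member nearest in name to Rps3a2 and Rps3a3, had 1128 ± 73.4, 1146 ± 51.9, 1340 ± 33.8 and 1139 ± 23.6. Rps4x, the member nearest in name to Rps4l, had 1423 ± 81.0, 1465 ± 118, 2106 ± 37.0 and 1518 ± 10.2.

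The difference of the tumour change between the cell types was itself tested as an interaction, HEC change minus BEC change. By its adjusted p, 32 members had a lower and 8 a higher value, compared with 23.8% and 22.9% of all genes. Past 2-fold, 2 were lower, Rps2 among them, and 1 higher (Rpl17), against 12.1% and 11.2%. Without BEC normal replicate 1 or 3 or BEC tumour replicate 3, 1 was lower, and without BEC tumour replicate 1, 2 were higher. The median was -0.19 on the log2 scale, compared with 0.00 for all genes.

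Rps2 rose in BECs and fell in HECs, with an interaction of -1.19 ± 0.11 on the log2 scale (adjusted p = 2.83e-25, DESeq2). Rpl27a had an interaction of -0.89 ± 0.12 and Rpl36al, the autosomal copy of Rpl36a, one of -0.57 ± 0.08. In the other direction, Rpl17 fell in BECs and rose in HECs (1.69 ± 0.30, adjusted p = 1.02e-07, DESeq2). Rps14 and Rps23 fell in both, by more in BECs, with interactions of 0.58 ± 0.13 and 0.45 ± 0.11. In all, 35 members (42.7%) fell in both cell types, compared with 6.66% of all genes, and 10 (12.2%) fell in HECs but rose in BECs, compared with 6.14%, among them Rpl27a, Rpl34, Rpl36al, Rplp0 and Rps2.

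**Figure D4:**
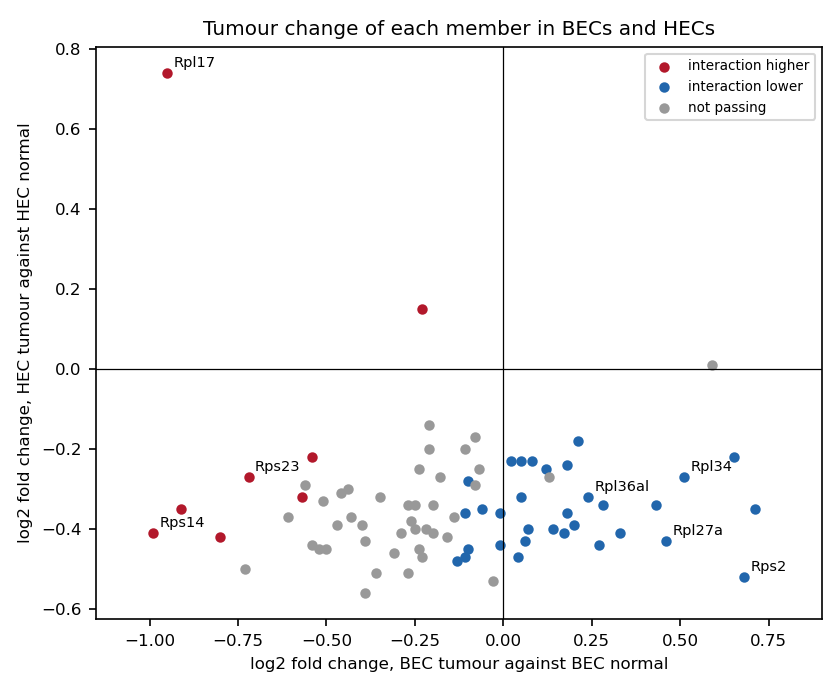
Log2 fold change with tumour in BECs (x axis) and in HECs (y axis) for 81 members (Rpl39l left out), coloured by whether the interaction had an adjusted p under 0.05. Almost all points lie below 0 on the y axis while they spread over both sides of 0 on the x axis, and Rpl17 lies apart at the top left.

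EO771 cells were compared to see what 12-HETE does to the tumour cells themselves. The members moved little and in both directions. Of 81 members, 14 rose by the adjusted p alone and 9 fell, compared with 22.7% higher and 24.2% lower of the 11602 genes tested, so that fewer of the 81 members passed than of all genes. None passed 2-fold in either direction by DESeq2, against 2.38% higher and 7.79% lower of all genes, and none did at an unadjusted p under 0.05 or by edgeR. The median log2 fold change was -0.06, compared with 0.00 for all genes. With total-count scaling the split was 11 higher and 12 lower. Without vehicle replicate 3, 31 members were lower, and without 12-HETE replicate 2 or 3, 1 was. Without vehicle replicate 1 or 12-HETE replicate 1, 2 were lower. The members that rose were 4 without 12-HETE replicate 2 and 5 without 12-HETE replicate 3. With the trend of length and GC content removed, the median turned to 0.10.

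Rpl37a, a zinc-binding 60S protein, had the clearest difference. It had 487, 466 and 475 normalised CPM with vehicle and 810, 873 and 820 with 12-HETE, without overlap (log2 fold change 0.81 ± 0.07, adjusted p = 1.36e-25, DESeq2). Rpl21, a 60S protein, rose from 223, 225 and 257 to 351, 356 and 365 (0.60 ± 0.09), and Rpl36a from 198, 177 and 190 to 255, 274 and 269 (0.50 ± 0.09). All treated libraries lay above all controls for these 3.

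Of the members that fell, Rpl10a, which forms the L1 stalk, went from 694, 743 and 637 to 542, 546 and 496 (log2 fold change -0.39 ± 0.10, adjusted p = 0.000265, DESeq2). All its treated libraries lay below all controls. The share of counts from mitochondrially encoded genes was 0.72% to 0.82% with vehicle and 2.24% to 2.45% with 12-HETE, and the epithelial markers summed to 2867 to 3781 CPM with vehicle and 1929 to 1985 CPM with 12-HETE. Their part in these differences was not tested.

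**Figure D5:**
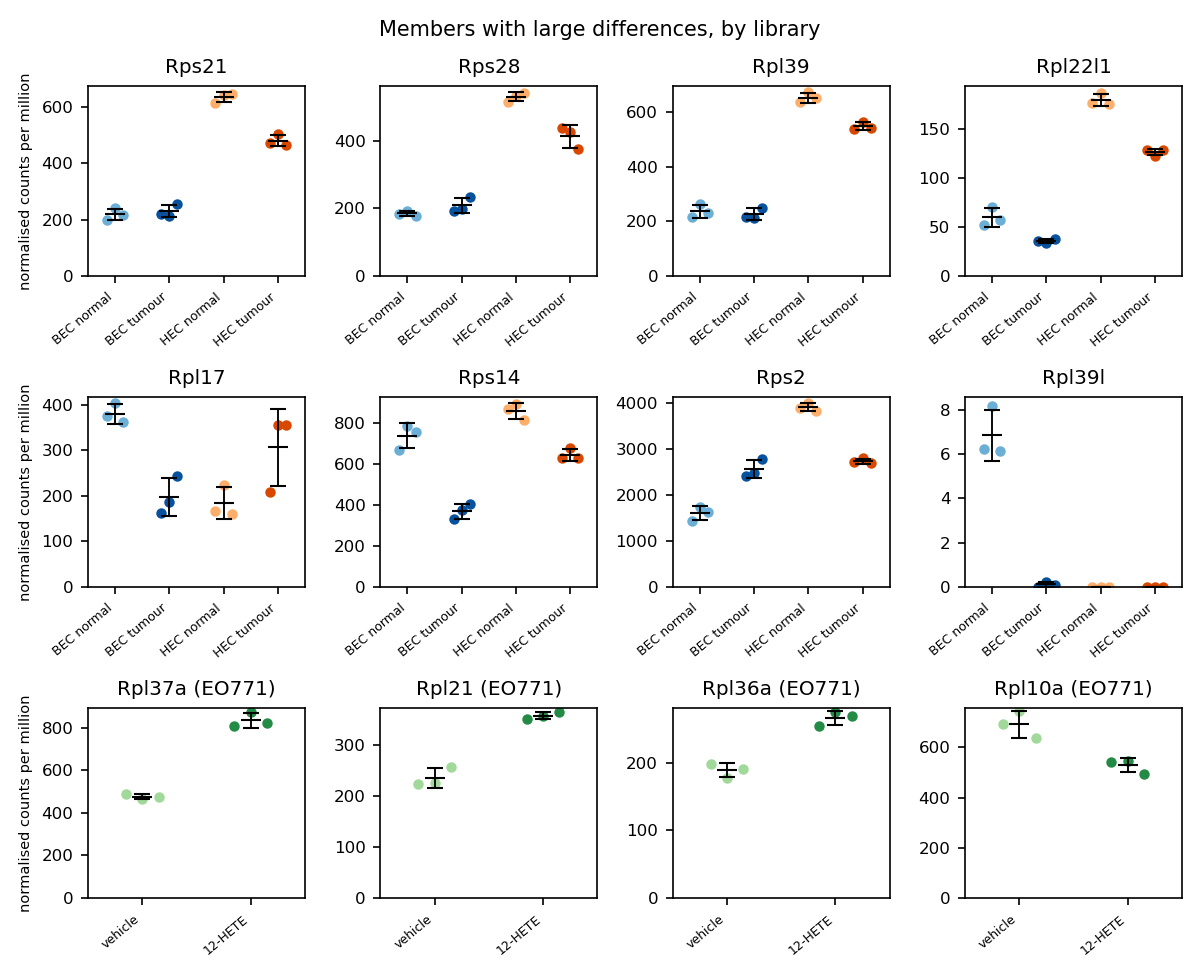
Normalised CPM of 12 members in each library, in the 4 endothelial groups (upper 2 rows) and in EO771 cells (bottom row), with bars for the mean and SD (n = 3). Rpl39l is above 6 in the BEC normal libraries and at 0 in all HEC libraries, and Rpl37a is at 466 to 487 with vehicle and 810 to 873 with 12-HETE.

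The paralogues could be set beside their partners. Rpl22l1 had means of 59.6 ± 9.49 for BEC normal, 35.9 ± 2.10 for BEC tumour, 179 ± 6.11 for HEC normal and 126 ± 3.43 for HEC tumour cells (SD, n = 3), and of 18.9 ± 1.62 and 18.9 ± 1.89 in vehicle and 12-HETE EO771 cells. The endothelial group means of Rpl22 were 135 to 222. Rps27l, a target of p53 beside Rps27, had means of 194 ± 24.4, 168 ± 17.1, 245 ± 6.13 and 213 ± 3.41. Rpl7l1, a nucleolar relative of Rpl7, had 177 ± 10.2, 151 ± 8.33, 161 ± 6.06 and 178 ± 7.76, with a log2 fold change of 0.24 ± 0.07 in HEC tumour against BEC tumour cells (adjusted p = 0.00113, DESeq2). Rpl36al had 215 ± 8.32, 255 ± 11.5, 323 ± 10.5 and 259 ± 6.73 beside Rpl36a at 248 ± 7.50, 286 ± 29.5, 418 ± 11.2 and 318 ± 2.77. Rpl3 had 1137 ± 27.2, 1255 ± 110, 1606 ± 24.0 and 1213 ± 21.5, while the highest Rpl3l group mean was 0.104, and Rpl10 had 503 ± 23.1, 465 ± 34.0, 602 ± 36.6 and 525 ± 2.85, while Rpl10l was at 0 in every endothelial library.

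The other genes of ribosome production were listed by role and counted in the same fits, by the adjusted p alone. The shares of all genes for comparison were 31.4% higher and 31.9% lower in normal HECs against normal BECs, 25.9% and 28.4% in tumour HECs against tumour BECs, 16.9% and 18.5% with tumour in HECs, 26.5% and 27.2% with tumour in BECs, 22.9% and 23.8% in the interaction, and 22.7% and 24.2% in EO771 cells. Of 72 ribosome biogenesis factors, which process and assemble ribosomal RNA and proteins in the nucleolus, 48 were lower and 11 higher in the normal HECs than the normal BECs (median log2 fold change -0.45), and 42 were higher and 9 lower in the tumour HECs than the tumour BECs (median 0.27). The 48 lower were 66.7% of the list and the 42 higher were 58.3%. With tumour, 54 rose and 6 fell in HECs (median 0.47), among them Pno1 at 1.09 ± 0.06, Tsr1 at 1.28 ± 0.08 and Rrs1 at 1.03 ± 0.06. In BECs 9 rose and 40 fell (median -0.26), with Wdr36 at -0.98 ± 0.07. The interaction was higher for 56 and lower for 4, whereas it was higher for 8 and lower for 32 of the ribosomal protein genes. In EO771 cells 17 of 71 rose and 10 fell (median 0.09).

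RNA polymerase I genes, which transcribe the large ribosomal RNAs, were counted in the same way. With tumour in HECs 8 of 15 rose and 2 fell (median 0.35, Polr1b at 0.87 ± 0.08). In HEC normal against BEC normal cells 4 were higher and 9 lower, in HEC tumour against BEC tumour cells 4 and 1, in BECs with tumour 3 rose and 3 fell, and in the interaction 9 were higher and 4 lower. In EO771 cells 1 rose and 2 fell. Of the 78 mitochondrial ribosomal protein genes, 18 were higher and 32 lower in the normal HECs than the normal BECs, 25 and 12 in the tumour HECs than the tumour BECs, 6 (7.69%) and 12 (15.4%) with tumour in HECs, 13 and 37 with tumour in BECs and 34 and 12 in the interaction, and in EO771 cells 13 of 77 rose and 7 fell.

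Among 21 translation factors and other genes with TOP mRNAs, 10 were higher and 6 lower in the normal HECs than the normal BECs, with Tpt1 at 1.31 ± 0.06, and 9 and 7 in HEC tumour than in BEC tumour cells. With tumour, 1 rose and 12 fell in HECs (median -0.16), and 9 rose and 9 fell in BECs. In HECs the gene that rose was Eif4a2 (0.70 ± 0.07), while Eef2, an elongation factor, fell by 0.45 on the log2 scale. The interaction was higher for 5 and lower for 9. In EO771 cells 7 of 19 rose and 3 fell. Fau and Rack1, which encode ribosomal proteins under other names, fell with tumour in HECs, by 0.29 and 0.49 on the log2 scale. Fau was higher in normal HECs than normal BECs (1.04 ± 0.09) and in HEC tumour than BEC tumour cells (0.84 ± 0.09), and it fell in EO771 cells (-0.49 ± 0.14). The interaction had an adjusted p of 0.23 for Fau and 0.0992 for Rack1 (DESeq2).

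Of 22 regulators, 8 were higher and 8 lower (36.4% each, near the shares of all genes) in the normal HECs than the normal BECs, 12 and 5 in the tumour HECs than the tumour BECs, 10 and 3 with tumour in HECs, 9 and 6 with tumour in BECs and 9 and 5 in the interaction. In EO771 cells 7 rose and 4 fell, among them Myc, a transcription factor known to drive ribosome production, at -2.64 ± 0.10, and Eif4ebp1, an inhibitor of cap-dependent translation, at -1.16 ± 0.11 (log2 fold change and SE).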

How the data were processed

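Tables of 12 endothelial and 6 EO771 libraries were used as deposited. The endothelial values are estimated counts per gene that the authors deposited. Low values lie in steps of 3.68 to 3.77, whose origin is not given in the sources used here. The EO771 values are raw counts per gene symbol that the authors deposited. The study's methods give alignment to GRCm38 with STAR and counting with featureCounts, without the strand setting, and name other library kits than the labels. Fits used DESeq2 1.42.0 in R 4.3.3, with edgeR 4.0.16 as an alternative, on genes with a mean count of at least 10, in 1 fit of the 12 endothelial libraries and 1 of the 6 EO771 libraries, after checks on simulated data. P-values were adjusted over all genes tested. TPM used the exonic length of the shortest principal transcript.

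Members, lists and tests were chosen with earlier results of these data known. Named in each comparison were the 5 called members per direction with the largest Wald statistics, or, where fewer than 3 were called in a direction, the 3 with the largest statistics among those with an adjusted p under 0.05. Also named were the stalk genes, Rpsa, the paralogues with their partners (Rps4l proved to be annotated as a pseudogene), the 3 highest and 3 lowest members per length, the 5 most and 5 least alike, and up to 3 called genes per list. All other members and lines named were chosen after their values were seen, among them Rpl29, Rpl24 and the members given as lists of calls. Some genes are not reported here by name, although they are part of the counts, medians and sums. Replicate numbers were checked for pairing. The correlations of deviations between same-numbered libraries were -0.05 to 0.18 over 18 endothelial and 0.06 to 0.25 over 3 EO771 pairs. Between differently numbered libraries they were -0.22 to 0.18 in the endothelial and -0.18 to 0.05 in the EO771 libraries. Every same-numbered EO771 pair thus lay above every differently numbered one. The labels name no pairs, so the main fits used none, and a pairing of the EO771 libraries is not excluded. Depth sets a floor of 3 steps per library for values at 0, and covers counting error only.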

Additional observations from a re-analysis of the deposited data

Results flagged for a closer look

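Tumour changes of HECs and BECs were set against each other by a test of the interaction (DESeq2, adjusted p under 0.05) and differed in 32 members with a lower and 8 with a higher value in HECs. Among those past 2-fold were Rpl17, with a log2 difference of 1.69, and Rps2, with one of -1.19. Groups of 3 libraries are too small for a test of single outlying samples.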

How the results depend on the processing

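With libraries left out in turn, the number of members higher and lower past 2-fold ranged from 12 to 17 and 1 to 2 for HEC normal against BEC normal, 3 to 5 and 0 to 1 for HEC tumour against BEC tumour, 0 to 0 in both directions for HEC tumour against HEC normal, 0 to 0 and 0 to 2 for BEC tumour against BEC normal, 1 to 2 and 1 to 3 for the interaction, and 0 to 0 in both directions for EO771. By the adjusted p alone the ranges were 57 to 62 and 7 to 9, 40 to 53 and 2 to 8, 1 to 1 and 62 to 65, 9 to 13 and 31 to 45, 7 to 12 and 28 to 39, and 4 to 16 and 1 to 31. The medians ranged from 0.38 to 0.51, 0.20 to 0.30, -0.38 to -0.35, -0.25 to -0.13, -0.25 to -0.13 and -0.13 to -0.02.

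Tested against a log2 fold change of 1, 6 members were higher and 1 lower in HEC normal against BEC normal cells, 0 lower in HEC tumour against BEC tumour cells, and 0 higher and 0 lower in the interaction. With the trend of length and GC content removed the medians were 0.27 for HEC normal against BEC normal, -0.42 for HEC tumour against HEC normal, -0.41 for BEC tumour against BEC normal and 0.10 for EO771, which turned its sign. With total-count scaling 3 members were lower by the adjusted p alone in HEC tumour against BEC tumour cells, and 2 were higher, with a median of -0.28, in HEC tumour against HEC normal cells, where Rpl7l1 joined Rpl17 and the count higher was also 2 with only the groups compared or with values divided by the step. The interaction gave 2 higher past 2-fold with values divided by the step, and with only the groups compared 0 members were lower past 2-fold in HEC tumour against BEC tumour cells. The cause was not tested.

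With the replicate block, which is not supported by a pairing in the labels, 0 members were lower past 2-fold in HEC tumour against BEC tumour cells. The block moved no other count by over 1.5 times. In EO771, 11 were higher and 9 lower by the adjusted p alone, in place of 14 and 9. There Rpl39 and Rps27 no longer passed (adjusted p = 0.082 and 0.143, DESeq2). The summed share was 13.8%, 13.3%, 18.5%, 15.8%, 17.2% and 16.8% in TPM for BEC normal, BEC tumour, HEC normal, HEC tumour, EO771 vehicle and EO771 12-HETE cells. With all 306 annotated or -ps pseudogene lines added it was 6.92%, 6.603%, 9.597% and 7.8% in the 4 endothelial groups, and without mitochondrially encoded genes 9.08% in HEC normal and 7.45% in HEC tumour cells.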
